A study of Mus musculus with 12 samples.

Results

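The MYC, MAX and MXD network consists of 10 genes, Myc, Mycn, Mycl, Max, Mxd1, Mxd3, Mxd4, Mxi1, Mnt and Mga, taken by gene symbol from a table of 46986 features. All 10 were found, each as 1 row. Their expression was followed in haematopoietic stem cells (HSCs) of C57BL/6 mice that were 12 weeks old, in 12 RNA-seq libraries made from 2000 sorted marrow cells each, 3 libraries in each of 4 groups. The first, called ABX 5-FU, came from mice whose drinking water held vancomycin, metronidazole, neomycin and ampicillin for 4 to 6 weeks, and which then received 200 mg/kg of 5-fluorouracil into a vein and were studied 12 days later. The second, Ctrl 5-FU, had the same 5-fluorouracil dose and day without antibiotics. The third, ABX, had antibiotics alone, and the fourth, Ctrl, had neither. 5-Fluorouracil (5-FU) is a pyrimidine analogue that kills dividing cells, so that the marrow has to be rebuilt by its stem cells, and the antibiotic mixture depletes gut bacteria. Nothing in the labels ties a library to an animal of its own, so p-values measure the spread between these libraries, which may be technical.

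MYC-family proteins activate transcription in a pair with MAX, and the pair binds the E-box, of which CACGTG is the canonical form. MXD proteins, MNT and MGA compete for the same partner and the same sites, and MXD proteins and MNT recruit SIN3 and histone deacetylases and repress. In mouse HSCs, Myc and Mycn are known to act redundantly in proliferation and survival.

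HSC markers were present in every library. Their summed expression over 12 markers was 200 to 224 RPKM, a read count scaled to transcript length and library depth, in ABX 5-FU, 218 to 235 RPKM in Ctrl 5-FU, 151 to 189 RPKM in ABX and 172 to 190 RPKM in Ctrl libraries. Of 10 tested HSC markers, 6 were called higher and 1 lower in ABX 5-FU than in ABX, where 13.7% of all tested features were higher and 16.5% lower. In Ctrl 5-FU, 5 were called higher and 1 lower than in Ctrl, where 9.74% of all tested features were higher and 11.8% lower. Of the tested markers, Mllt3 averaged 0.495 RPKM in ABX and 0.485 RPKM in Ctrl libraries, and Tek 0.804 and 0.806 RPKM. These genes reached 1 RPKM in 3 libraries only through the 5-FU groups, so they could be tested only because they were high there. The sum of 13 neutrophil and monocyte markers was 14.2 to 38.0 RPKM in ABX 5-FU and 38.1, 95.8 and 268 RPKM in Ctrl 5-FU libraries 1 to 3, against 11.4 to 21 RPKM in ABX and 13.9 to 25.8 RPKM in Ctrl libraries. Of these markers, Ly6g and Mmp8 stayed below 0.1 RPKM in all 12 libraries. Of 9 lymphoid markers, the T-cell gene Cd3e and the B-cell gene Ms4a1 were listed at the table's floor of 0.0001 RPKM, which stands for 0, in every library. Over all libraries Cd79b of the same list was at 8.56 to 15.0 RPKM, Nkg7 at 23.4 to 49.5 RPKM and Klrb1c at 0.579 to 6.41 RPKM. Klrb1c averaged 5.85 RPKM in ABX 5-FU, 0.708 RPKM in ABX, 5.38 RPKM in Ctrl 5-FU and 0.865 RPKM in Ctrl libraries. In each 5-FU comparison 1 of 3 tested lymphoid genes was called higher, against the same 13.7% and 9.74% of all features. Klrb1c, among the 3, entered the test through the 5-FU groups, in which it was high. The erythroid marker sum (8 genes) was 167 to 509 RPKM in ABX 5-FU, 144 to 230 RPKM in Ctrl 5-FU, 40.1 to 58.1 RPKM in ABX and 28.6 to 305 RPKM in Ctrl libraries. The megakaryocyte sum (6 genes) was 102 to 123 RPKM in ABX 5-FU, 94.5 to 392 RPKM in Ctrl 5-FU, 83 to 87.5 RPKM in ABX and 55.4 to 143 RPKM in Ctrl libraries. Sums of 9 lymphoid markers were 43.1 to 47.9 RPKM in ABX 5-FU, 47.4 to 67 RPKM in Ctrl 5-FU, 36.1 to 42.8 RPKM in ABX and 37.8 to 52.5 RPKM in Ctrl libraries. Those of 6 macrophage markers were 23.4 to 26.3 RPKM in ABX 5-FU, 12.6 to 25.5 RPKM in Ctrl 5-FU, 7.95 to 24.5 RPKM in ABX and 7.79 to 17.9 RPKM in Ctrl libraries. Those of 6 stromal and endothelial markers were 1.79 to 29 RPKM in ABX 5-FU, 1.69 to 15.2 RPKM in Ctrl 5-FU, 1.01 to 1.7 RPKM in ABX and 1.03 to 6 RPKM in Ctrl libraries. The part of such cells in the results was not tested. Library 1 of Ctrl 5-FU stood apart, with correlations of 0.971 and 0.972 to the other libraries of its group, where they had 0.989 to each other. Its megakaryocyte sum was 392 RPKM, against 115 and 94.5 RPKM in libraries 2 and 3 of the group. The stromal and endothelial sum was 15.2 RPKM in library 1, against 1.69 and 2.05 RPKM in libraries 2 and 3. Depth estimated from the spacing of low values was 27.4 to 53.9 M reads per library, with 28.8 to 37.2 M reads in ABX and 43.7 to 53.9 M reads in Ctrl libraries. The i7 index in the titles differs between libraries with and without 5-FU, so index and 5-FU cannot be told apart.

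Changes are given as differences of log2(RPKM + 1), a scale that understates the change of genes near 1 RPKM. They come from a limma fit over the 8553 features that reached 1 RPKM in 3 or more libraries, and a gene was called changed at a Benjamini-Hochberg adjusted p under 0.05 over all 8553. Of the 10 genes, 8 entered this fit. Mxi1 and Mycl did not reach 1 RPKM in any library and were not tested there.

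Myc was lower after 5-FU both with and without antibiotics. Myc, on mm10 chr15:61985341-61990374 on the plus strand, encodes the transcription factor that drives ribosome production, metabolism and cell cycle entry. With antibiotics Myc stood at 34.3, 35.1 and 37.3 RPKM in ABX 5-FU libraries, against 74.6, 67.3 and 55.9 RPKM in ABX libraries. Without antibiotics it stood at 35.3, 46.0 and 32.0 RPKM in Ctrl 5-FU libraries, against 63.7, 75.1 and 69.3 RPKM in Ctrl libraries. Every library taken after 5-FU lay below every library taken without it. Myc averaged 35.6 ± 1.56 RPKM in ABX 5-FU and 65.9 ± 9.44 RPKM in ABX libraries (SD, n = 3 each), a ratio of 0.539. The log2 change was -0.86 ± 0.135 (SE), with an adjusted p of 0.00119. Without antibiotics Myc averaged 37.8 ± 7.32 RPKM in Ctrl 5-FU and 69.4 ± 5.67 RPKM in Ctrl libraries (SD, n = 3 each), a ratio of 0.544 and a log2 change of -0.87 ± 0.135 (SE; adjusted p = 0.00194). These are bulk libraries, in which fewer cells with the transcript and less transcript per cell cannot be told apart.

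**Figure D1:**
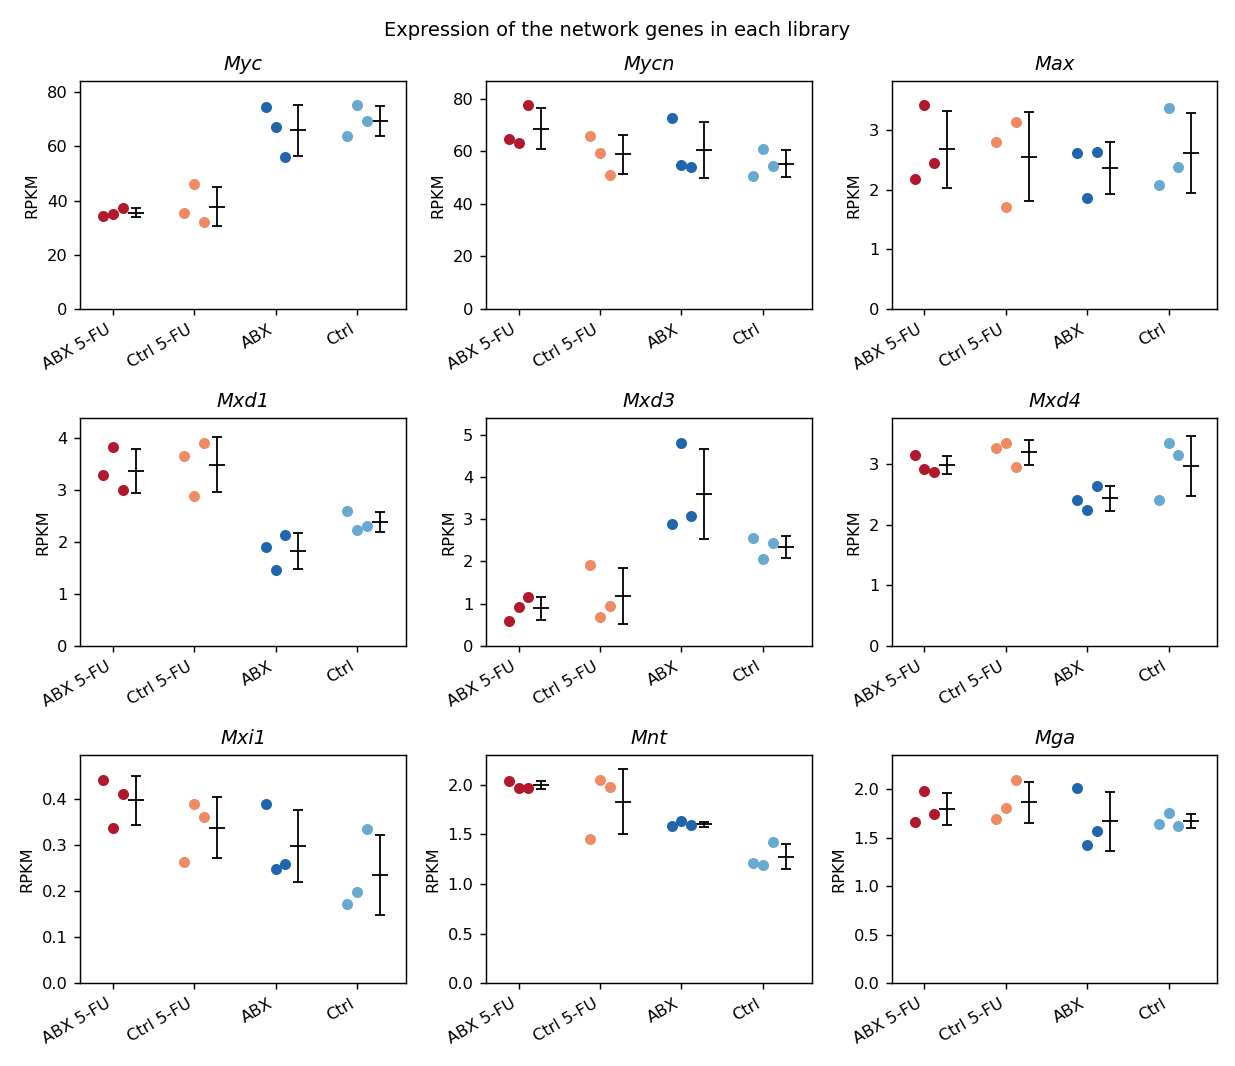
RPKM of 9 of the 10 genes (vertical axis, from 0) in the 4 groups (horizontal axis), with 1 point a library and the mean and SD (n = 3) as a black bar beside the points; Mycl, at the floor in 9 of 12 libraries, is left out. Myc lies at 32.0 to 46.0 RPKM after 5-FU and at 55.9 to 75.1 RPKM without it, while Mycn lies between 50.5 and 77.4 RPKM in all groups.

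Mycn, on chr12:12936096-12941914 on the minus strand, encodes a close relative that binds the same sites and can replace Myc in many tissues. With antibiotics Mycn was measured at 64.8, 63.3 and 77.4 RPKM in ABX 5-FU libraries, against 72.6, 54.9 and 53.9 RPKM in ABX libraries. Without antibiotics its values were 65.8, 59.4 and 51.1 RPKM in Ctrl 5-FU libraries, against 50.5, 60.8 and 54.5 RPKM in Ctrl libraries. The groups overlapped in both pairs. The log2 change after 5-FU was 0.18 (95% interval -0.11 to 0.48, adjusted p = 0.322) with antibiotics and 0.08 (-0.21 to 0.38, adjusted p = 0.686) without, so neither interval reaches a fall of the size seen in Myc.

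Mycl, on chr4:122995652-123002485 on the plus strand, encodes the third MYC protein and was at the floor in 9 of 12 libraries. The exceptions were 0.215 RPKM in Ctrl 5-FU library 1, 0.00765 RPKM in ABX 5-FU library 3 and 0.0034 RPKM in Ctrl library 1. At the estimated depth the highest of these corresponds to about 20.6 reads. With no filter on low values its log2 change was 0.004 (adjusted p = 1) with antibiotics and 0.09 (adjusted p = 0.487) without.

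The order of the MYC genes differed between groups. Both are compared here per length, as RPKM. The ratio of Myc to Mycn was 0.529, 0.554 and 0.482 in ABX 5-FU libraries and 0.536, 0.775 and 0.626 in Ctrl 5-FU libraries. It was 1.03, 1.23 and 1.04 in ABX libraries and 1.26, 1.24 and 1.27 in Ctrl libraries. Mycn was thus above Myc in all 6 libraries taken after 5-FU, and Myc above Mycn in all 6 libraries taken without it. The Myc and Mycn ranges did not overlap in ABX 5-FU, Ctrl 5-FU or Ctrl, but did in ABX, where Myc covered 55.9 to 74.6 RPKM and Mycn 53.9 to 72.6 RPKM. Myc made up 34.3% ± 1.6 of the summed MYC-family RPKM in ABX 5-FU, 39.0% ± 4.44 in Ctrl 5-FU, 52.2% ± 2.46 in ABX and 55.7% ± 0.365 in Ctrl libraries (SD, n = 3 each). The summed MYC-family level was 104 ± 9.22 RPKM in ABX 5-FU, 96.6 ± 11.9 RPKM in Ctrl 5-FU, 126 ± 19.1 RPKM in ABX and 125 ± 10.8 RPKM in Ctrl libraries (SD, n = 3 each). With antibiotics these sums overlapped, at 98.4 to 115 RPKM in ABX 5-FU and 110 to 147 RPKM in ABX libraries. Without antibiotics they did not, at 83.1 to 105 RPKM in Ctrl 5-FU and 114 to 136 RPKM in Ctrl libraries. These ratios and sums are descriptions and were not tested.

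**Figure D2:**
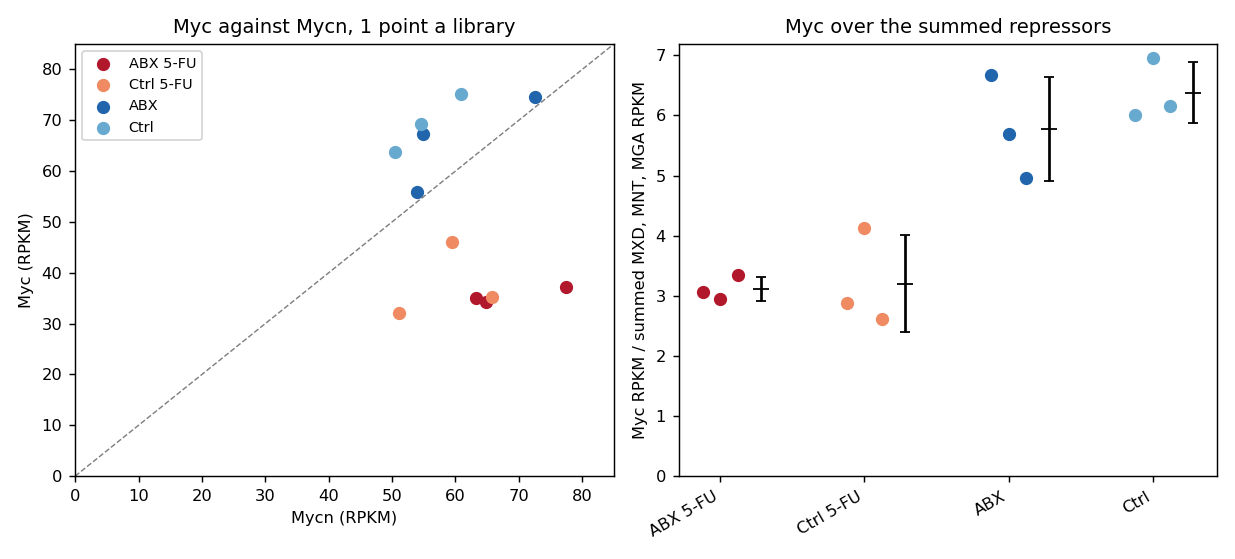
Left, Myc against Mycn in RPKM with 1 point a library and equality as a dashed line; right, the ratio of Myc to the summed MXD-family, MNT and MGA genes, with 1 point a library and the mean and SD (n = 3). The 6 libraries taken after 5-FU lie below the line and at ratios of 2.61 to 4.12, and the 6 without 5-FU lie above the line and at 4.96 to 6.96.

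Max, on chr12:76937269-76962248 on the minus strand, encodes the obligate partner of the whole network. Max transcripts amounted to 2.18, 3.41 and 2.44 RPKM in ABX 5-FU libraries, against 2.61, 1.86 and 2.63 RPKM in ABX libraries. The pair without antibiotics gave 2.79, 1.71 and 3.14 RPKM in Ctrl 5-FU libraries, against 2.08, 3.37 and 2.38 RPKM in Ctrl libraries. All 4 groups overlapped. Its log2 change was 0.12 (95% interval -0.29 to 0.53, adjusted p = 0.654) with antibiotics and -0.03 (-0.44 to 0.38, adjusted p = 0.917) without. With each library rescaled to the same sum, the value without antibiotics became 0.12 (adjusted p = 0.750). The summed MYC-family RPKM stood above that of Max in every group, at ratios of 28.8 to 46.9 in ABX 5-FU, 26.5 to 61.5 in Ctrl 5-FU, 41.8 to 65.6 in ABX and 40.3 to 55.0 in Ctrl libraries.

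Among the antagonists, those whose level moved after 5-FU did so in different directions. Mxd3, on chr13:55325168-55329758 on the minus strand, encodes the MXD protein known from mouse cells to be made during S phase. Its values were 0.599, 0.917 and 1.15 RPKM in ABX 5-FU libraries, against 2.88, 4.81 and 3.08 RPKM in ABX libraries. In the mice without antibiotics they were 1.92, 0.678 and 0.941 RPKM in Ctrl 5-FU libraries, against 2.56, 2.06 and 2.43 RPKM in Ctrl libraries. Neither pair of groups overlapped. Mxd3 fell by 1.27 ± 0.205 (SE) on the log2 scale with antibiotics (adjusted p = 0.00139), at a ratio of mean RPKM of 0.248, and by 0.66 ± 0.205 (SE) without them (adjusted p = 0.0408), at a ratio of 0.502. Of the 8 libraries in which it reached 1 RPKM, 6 were those without 5-FU, so it entered the fit through the groups in which it was high. With no filter on low values the adjusted p was 0.0101 with antibiotics and 0.139 without. Its estimated reads per library ranged from 35.7 to 241, the thinnest cover of the tested genes. The 3' end of Mxd3 shares 104 bases with Prelid1 on the opposite strand, which was at 40.1 to 53.6 RPKM, and no source used here says whether the counting used strand. Prelid1 changed by -0.12 (adjusted p = 0.416) with antibiotics and -0.02 (adjusted p = 0.924) without.

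Mxd1, on chr6:86647042-86669161 on the minus strand, encodes MAD1, which is known to appear when myeloid cells leave the cycle and mature. Mxd1 stood at 3.30, 3.84 and 3.0 RPKM in ABX 5-FU libraries, against 1.90, 1.46 and 2.14 RPKM in ABX libraries. In the pair without antibiotics it stood at 3.66, 2.90 and 3.92 RPKM in Ctrl 5-FU libraries, against 2.61, 2.24 and 2.31 RPKM in Ctrl libraries. The libraries after 5-FU were higher in both pairs, without overlap. Mxd1 rose by 0.63 ± 0.115 (SE) on the log2 scale with antibiotics (adjusted p = 0.00255) and by 0.40 ± 0.115 (SE) without them (adjusted p = 0.0293). Neutrophils are rich in Mxd1, and the neutrophil and monocyte marker sum was highest in Ctrl 5-FU library 3, at 268 RPKM. Without that library the change was 0.33 (adjusted p = 0.112). Without Ctrl 5-FU library 1, which had the lowest sum of its group at 38.1 RPKM, it was 0.374 (adjusted p = 0.0608). The call was also lost without Ctrl library 2 or 3. In the pair with antibiotics the neutrophil and monocyte sum was 14.2 to 38.0 RPKM in ABX 5-FU and 11.4 to 21 RPKM in ABX libraries. There 0 of 5 tested neutrophil and monocyte genes were called, where 30.2% of all tested features were. In the pair without antibiotics 3 of those 5, S100a8, S100a9 and Ngp, were called higher, where 9.74% of all tested features were. The sum of 6 myeloid progenitor markers did not overlap in the pair with antibiotics, at 26.2 to 32.9 RPKM in ABX 5-FU and 12.1 to 17.7 RPKM in ABX libraries, and was 20.5 to 76.9 RPKM in Ctrl 5-FU and 15.6 to 23.9 RPKM in Ctrl libraries. Of these genes 2 were tested, and 1, the protease gene Prtn3, was called higher with antibiotics and 0 without. Of all tested features 13.7% and 9.74% were called higher. The part of such cells in the Mxd1 values was not tested.

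Mnt, on chr11:74830920-74845725 on the plus strand, encodes the broadly expressed MAX partner that represses MYC targets in resting and dividing cells alike. Mnt values were 2.04, 1.97 and 1.97 RPKM in ABX 5-FU libraries, against 1.58, 1.63 and 1.59 RPKM in ABX libraries. Those without antibiotics were 1.45, 2.05 and 1.98 RPKM in Ctrl 5-FU libraries, against 1.21, 1.19 and 1.42 RPKM in Ctrl libraries. Neither pair overlapped. The log2 change was 0.31 ± 0.0851 (SE; adjusted p = 0.0257) without antibiotics, which passed the threshold, and 0.20 ± 0.0851 (SE; adjusted p = 0.0934) with them, which did not.

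Mxd4, on chr5:34173883-34187720 on the minus strand, encodes another MXD repressor. Levels of Mxd4 were 3.15, 2.91 and 2.87 RPKM in ABX 5-FU libraries, against 2.41, 2.24 and 2.64 RPKM in ABX libraries, without overlap. Without antibiotics Mxd4 was at 3.26, 3.35 and 2.95 RPKM in Ctrl 5-FU libraries, against 2.41, 3.35 and 3.14 RPKM in Ctrl libraries, with overlap. Neither change was called, at 0.22 (95% interval 0.01 to 0.42, adjusted p = 0.0991) with antibiotics and 0.08 (-0.12 to 0.29, adjusted p = 0.546) without. Mga, on chr2:119897228-119969581 on the plus strand, encodes a large protein with both a T-box and a MAX-binding domain that works in a Polycomb complex. It ranged from 1.43 to 2.10 RPKM over all 12 libraries, with log2 changes of 0.07 (-0.13 to 0.27, adjusted p = 0.590) with antibiotics and 0.10 (-0.10 to 0.30, adjusted p = 0.463) without. Mxi1, on chr19:53310506-53375810 on the plus strand, encodes the MXD protein also called MAD2. It averaged 0.397 ± 0.0535 RPKM in ABX 5-FU, 0.338 ± 0.0658 RPKM in Ctrl 5-FU, 0.298 ± 0.0790 RPKM in ABX and 0.235 ± 0.0879 RPKM in Ctrl libraries (SD, n = 3 each), with overlap between neighbouring groups.

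Of the 8 tested genes, Myc, Mxd1 and Mxd3 were called in the comparison of ABX 5-FU with ABX, 1 higher and 2 lower, where 30.2% of all tested features were called (13.7% higher, 16.5% lower). In the comparison of Ctrl 5-FU with Ctrl, Myc, Mxd1, Mxd3 and Mnt were called, 2 higher and 2 lower, where 21.6% of all features were called (9.74% higher, 11.8% lower). The groups did not overlap in 5 of the 8 genes with antibiotics and in 4 of the 8 without, against 49.9% and 37% of all features in the same comparisons. The median log2 change of the 8 genes was 0.15 with antibiotics and 0.08 without, against -0.01 and 0.01 over all features. Summed RPKM was 149886 to 157119 in ABX 5-FU and 142127 to 152916 in Ctrl 5-FU libraries, against 165856 to 176924 in ABX and 165097 to 174252 in Ctrl libraries. When each library was rescaled to the same sum, the median feature moved to 0.15 with antibiotics and 0.18 without. The share of called features that were higher became 74.1% in place of 45.4% with antibiotics and 81.1% in place of 45.1% without. Relative to those medians Myc was at -0.85 with antibiotics and -0.89 without, and Mxd3 at -1.82 and -1.02. On the same footing Mxd1 was at 0.85 with antibiotics and 0.51 without. Without rescaling and less the medians, Myc was at -0.85 with antibiotics and -0.88 without. Mxd3 was then at -1.25 and -0.66, and Mxd1 at 0.64 and 0.40. The sum to which libraries were rescaled was far above that of any library, while 1 was still added before taking log2. Rescaling thus also made the scale understate less the changes of genes near 1 RPKM, such as Mxd3 and Mxd1. The parts of the library sum and of the added 1 in rescaled values and calls, of these or other genes, were not tested separately.

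**Figure D3:**
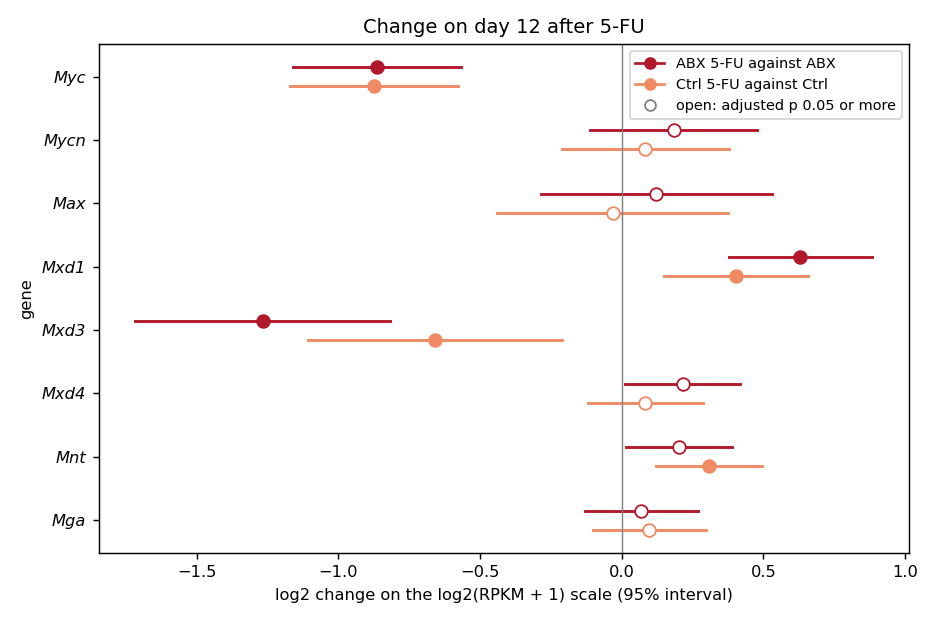
Log2 change after 5-FU on the log2(RPKM + 1) scale (horizontal axis) with its 95% interval for the 8 tested genes (vertical axis), with antibiotics in dark red and without in orange; filled points have an adjusted p under 0.05. Myc is at -0.86 with antibiotics and -0.87 without, Mxd3 at -1.27 with and -0.66 without, and Mxd1 at 0.63 with and 0.40 without.

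The calls differed in how firm they were. Myc kept its call in both comparisons under each of 21 alternatives, with log2 changes of -0.98 to -0.70 with antibiotics and -1.02 to -0.71 without, and Mxd1 and Mxd3 with antibiotics kept theirs under each of 20. Without antibiotics Mxd1 lost its call when Ctrl library 2 or 3, or Ctrl 5-FU library 1 or 3, was left out, with adjusted p of 0.0608 to 0.112. Mxd3 lost it without any 1 of Ctrl libraries 1, 2 and 3, Ctrl 5-FU libraries 2 and 3 and ABX 5-FU library 2, with adjusted p of 0.0548 to 0.129. Mnt lost it without Ctrl library 1 or 2 or Ctrl 5-FU library 2 or 3, with adjusted p of 0.0701 to 0.0963. Without Ctrl 5-FU library 1, the library that stood apart, Myc kept its call without antibiotics, and the log2 changes there were -0.889 for Mxd3 (adjusted p = 0.00657), 0.374 for Mxd1 (0.0608) and 0.408 for Mnt (0.00351). With no filter on low values, adjusted p without antibiotics was 0.087 for Mxd1, 0.139 for Mxd3 and 0.0578 for Mnt, and with only the 2 groups fitted it was 0.0569, 0.0693 and 0.106 in the same order. Mxd3 also lost that call when libraries were rescaled to the same sum (adjusted p = 0.0639). With antibiotics Mxd4 and Mnt passed the threshold when rescaled (adjusted p = 0.0144 and 0.0222) and with array weights (0.0416 and 0.0405), and Mnt with only the 2 groups fitted (0.0409). Mxd4 also passed it without Ctrl library 1 (adjusted p = 0.0416), and Mnt passed it without Ctrl 5-FU library 1 (adjusted p = 0.0306).

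As RPKM without rescaling, the summed level of the antagonists varied little between groups. Summed RPKM of whole libraries was lower after 5-FU, so this does not hold for the antagonists' share of that total. Mxd1, Mxd3, Mxd4, Mxi1, Mnt and Mga together gave 11.4 ± 0.446 RPKM in ABX 5-FU, 11.9 ± 0.617 RPKM in Ctrl 5-FU, 11.4 ± 0.347 RPKM in ABX and 10.9 ± 0.335 RPKM in Ctrl libraries (SD, n = 3 each). The ratio of Myc to this sum was 3.11 ± 0.208 in ABX 5-FU, 3.20 ± 0.801 in Ctrl 5-FU, 5.77 ± 0.863 in ABX and 6.37 ± 0.511 in Ctrl libraries (SD, n = 3 each), with no overlap between libraries with and without 5-FU. Within the sum, Mxd1 over Mxd3 was 5.51, 4.18 and 2.60 in ABX 5-FU and 1.91, 4.28 and 4.17 in Ctrl 5-FU libraries, against 0.660, 0.304 and 0.696 in ABX and 1.02, 1.09 and 0.948 in Ctrl libraries. In ABX libraries Mxd3 was the third most abundant gene of the network, at 2.88 to 4.81 RPKM, above and not overlapping Mxd4 at 2.24 to 2.64 RPKM. In Ctrl libraries Mxd3 held rank 6, at 2.06 to 2.56 RPKM, with a range that overlapped that of Mxd1. After 5-FU Mxd3 was the eighth, above Mxi1 and Mycl, and Mxd1 the third, with a range that overlapped that of Mxd4 in ABX 5-FU and in Ctrl 5-FU.

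The promoters of Mxd3, Mxd1 and Mnt, which were called, and of Mycn are shown for the motifs they hold. RefSeq promoters (GRCm38.p6, 250 bases before to 50 after the start of transcription) were found for 9 of the 10 genes, the exception being Myc, and motifs were searched on both strands. Capitals mark the Sp1 motif GGGCGG, read on either strand. They also mark the E-box CACGTG. For E2F they mark the motif TTTCGCG on either strand. The other E2F motif marked is TTTGGCG, and overlapping motifs run together. The windows are chr13:55329682-55329981 (minus strand) for Mxd3, chr6:86669110-86669409 (minus strand) for Mxd1, chr11:74830674-74830973 (plus strand) for Mnt and chr12:12941787-12942086 (minus strand) for Mycn, the last a MYC gene that was not called.
Mxd3: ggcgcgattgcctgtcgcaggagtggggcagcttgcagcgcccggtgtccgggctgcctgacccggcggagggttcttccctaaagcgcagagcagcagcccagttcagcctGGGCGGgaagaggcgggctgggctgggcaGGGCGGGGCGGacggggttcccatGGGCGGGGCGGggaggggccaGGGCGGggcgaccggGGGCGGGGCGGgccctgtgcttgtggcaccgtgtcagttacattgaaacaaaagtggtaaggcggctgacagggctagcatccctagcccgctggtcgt
Mxd1: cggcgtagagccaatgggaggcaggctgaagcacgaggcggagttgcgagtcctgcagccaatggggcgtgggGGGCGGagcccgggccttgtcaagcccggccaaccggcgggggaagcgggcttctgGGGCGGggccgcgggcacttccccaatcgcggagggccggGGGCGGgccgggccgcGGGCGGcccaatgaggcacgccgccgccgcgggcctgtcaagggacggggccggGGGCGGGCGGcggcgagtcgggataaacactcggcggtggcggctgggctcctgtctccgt
Mnt: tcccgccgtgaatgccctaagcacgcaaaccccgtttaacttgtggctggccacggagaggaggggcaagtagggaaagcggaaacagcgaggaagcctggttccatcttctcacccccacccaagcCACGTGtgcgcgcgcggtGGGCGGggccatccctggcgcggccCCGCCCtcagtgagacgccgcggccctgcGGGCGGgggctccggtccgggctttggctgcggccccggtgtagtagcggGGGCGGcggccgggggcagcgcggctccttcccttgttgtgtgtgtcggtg
Mycn: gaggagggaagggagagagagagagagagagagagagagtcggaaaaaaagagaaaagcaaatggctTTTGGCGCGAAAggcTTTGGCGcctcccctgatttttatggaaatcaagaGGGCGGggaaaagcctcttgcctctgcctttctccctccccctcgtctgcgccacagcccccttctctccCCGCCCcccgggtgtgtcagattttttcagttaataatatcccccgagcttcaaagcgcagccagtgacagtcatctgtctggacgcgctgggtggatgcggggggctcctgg

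The Mxd3 window held GGGCGG at 8 positions and the Mxd1 window at 6, some of them overlapping, and neither held an E-box or an E2F motif as spelled here. Counted from the start of transcription, Mnt held CACGTG at -123, Max at -3 and Mxd4 at -219, where 7.15% of all 32851 windows held it. The Mycn window held TTTGGCG at -183 and at -168, and the first of them overlapped a reverse-strand match of the other E2F motif, TTTCGCG, at -178. Over all windows, 1.56% held TTTGGCG, 0.849% held TTTCGCG and 35.7% held GGGCGG. The variant E-box CACGCG was in the windows of Mycl and Mga and in 9.27% of all windows. A match is a run of letters and not a site that was shown to be bound.

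Many of the genes that MYC is known to activate were lower after 5-FU. Of 45 such genes 40 were tested, and the counts called lower were 28 with antibiotics and 20 without, with 0 called higher in either, where 16.5% and 11.8% of all features were lower. Their median log2 change was -0.51 with antibiotics and -0.29 without, against -0.01 and 0.01 over all features. Cyclin D2, encoded by Ccnd2, was at 6.94 ± 0.462 RPKM in ABX 5-FU and 18.0 ± 0.920 RPKM in ABX libraries (SD, n = 3 each), a log2 change of -1.26 (adjusted p = 1.32e-05). It was at 6.59 ± 0.538 RPKM in Ctrl 5-FU and 16.1 ± 1.29 RPKM in Ctrl libraries (SD, n = 3 each), a log2 change of -1.18 (adjusted p = 2.06e-05). The nucleolar protein genes Nop56 and Fbl fell by 0.995 and 0.57 with antibiotics and by 0.56 and 0.49 without. The cyclin-dependent kinase gene Cdk4 fell by 0.60 with antibiotics and 0.54 without. Amd1, of polyamine synthesis, and Nop58 fell by 0.67 and 0.66 with antibiotics. These counts are sensitive to scale and to single libraries. Rescaled in that way, 22 were lower and 2 higher with antibiotics, and 9 lower and 2 higher without. Without antibiotics, 10 were lower when Ctrl 5-FU library 3 was left out, 13 without Ctrl library 1, 12 without Ctrl library 3 and 23 without Ctrl 5-FU library 1, 13 were lower with no filter on low values and 8 when only the 2 groups entered the fit.

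Of 12 genes that MYC is known to repress, 9 were tested. With antibiotics 5 were higher and 1 lower after 5-FU, at a median log2 change of 0.56, where 13.7% of all features were higher and 16.5% lower. Without antibiotics 2 were higher and 0 lower, at a median of 0.40, where 9.74% and 11.8% of all features were. With libraries rescaled to the same sum, 5 were higher without antibiotics, and 0 were with no filter on low values or with only the 2 groups fitted. Gadd45a, a growth arrest gene, was called in both, at 6.79 ± 0.328 RPKM in ABX 5-FU and 4.32 ± 0.717 RPKM in ABX libraries, and at 7.10 ± 0.677 RPKM in Ctrl 5-FU and 4.78 ± 0.956 RPKM in Ctrl libraries (SD, n = 3 each). The integrin gene Itgb1 rose by 0.60 without antibiotics (adjusted p = 0.0221). Ndrg2 rose by 0.98, Gadd45b by 0.71, Cdkn1b, the gene of the cycle inhibitor p27, by 0.56 and Clu by 1.31 with antibiotics (adjusted p = 0.00129, 0.00286, 0.00831 and 0.0320). Cdkn2c, which encodes another cycle inhibitor, fell by 0.82 with antibiotics (adjusted p = 0.00557). The count without antibiotics was 0 when Ctrl library 2 or 3 was left out and 1 without Ctrl 5-FU library 2 or 3. Genes of cycling cells were also lower. Of 9 measured, 6 were called lower with antibiotics and 5 without, against 16.5% and 11.8% of all features, among them Pcna, the replication clamp, at -1.13 and -0.98, and Mcm5, a helicase subunit, at -1.22 and -1.14. The part of a changed share of cycling cells in the Myc, Mxd3 and target values was not tested.

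**Figure D4:**
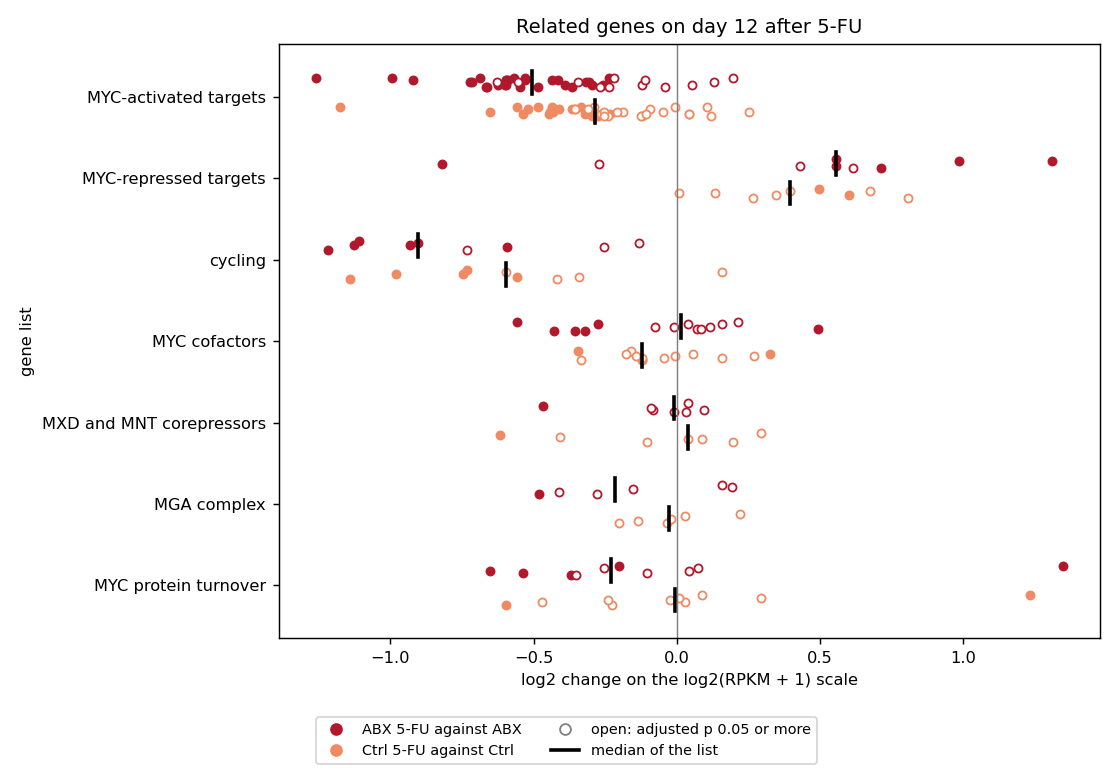
Log2 change after 5-FU on the log2(RPKM + 1) scale (horizontal axis) of the tested genes of 7 lists (vertical axis), with antibiotics in dark red above and without in orange below; filled points have an adjusted p under 0.05 and black bars are list medians. The MYC-activated genes have medians of -0.51 with antibiotics and -0.29 without, and the MYC-repressed genes 0.56 with and 0.40 without.

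Among partners of the network the calls went in both directions. Of 14 tested cofactors, 1 was higher and 5 lower with antibiotics, against 13.7% and 16.5% of all features. Rescaled to the same sum, the balance turned, with 3 higher and 2 lower, and without antibiotics 2 were higher and 0 lower. The acetyltransferase gene Kat2a fell by 0.43 and the ATPase genes Ruvbl2 and Ruvbl1 by 0.56 and 0.28 (adjusted p = 0.00298, 0.00320 and 0.0153), while Kat5, which encodes the acetyltransferase TIP60, rose by 0.49 (adjusted p = 0.0100). Without antibiotics Ep300, the gene of the acetyltransferase p300, rose by 0.33 (adjusted p = 0.0160) and Ruvbl2 fell by 0.35 (adjusted p = 0.0393). These were 1 higher and 1 lower of the 14, against 9.74% and 11.8% of all features. With antibiotics 3 cofactors were lower without ABX library 1 or 2 or ABX 5-FU library 3, and 2 without ABX 5-FU library 2. Without antibiotics the count of lower cofactors was 0 to 2 when single libraries were left out, and 0 without Ctrl library 1 or 3, Ctrl 5-FU library 3, ABX library 3 or any ABX 5-FU library. Of 7 corepressor genes tested, Rbbp7, a histone-binding subunit of the SIN3 complex, was the 1 called, where 30.2% of all features were called with antibiotics and 21.6% without. Rescaled, 1 corepressor gene was also higher in each comparison. Rbbp7 was lower in both, at 20.2 ± 0.344 RPKM in ABX 5-FU and 28.4 ± 0.897 RPKM in ABX libraries, and at 17.2 ± 0.732 RPKM in Ctrl 5-FU and 26.9 ± 1.52 RPKM in Ctrl libraries (SD, n = 3 each). Of 6 genes of the MGA complex, Cbx3, which encodes a heterochromatin protein, fell by 0.48 with antibiotics (adjusted p = 0.00261), and 0 were called without, against the same 30.2% and 21.6% of all features. Rescaled, 2 of the 6 were higher with antibiotics and 1 without.

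Among 10 tested genes that act on MYC protein stability, Pim2 was the 1 called higher in both comparisons. Of all features 13.7% were higher with antibiotics and 9.74% without. PIM2 is a kinase that phosphorylates and stabilises MYC. Pim2 was at 35 ± 3.92 RPKM in ABX 5-FU and 13.1 ± 1.27 RPKM in ABX libraries (SD, n = 3 each), a log2 change of 1.35 (adjusted p = 0.000824). It was at 32.8 ± 8.30 RPKM in Ctrl 5-FU and 13.4 ± 3.26 RPKM in Ctrl libraries (SD, n = 3 each), a log2 change of 1.23 (adjusted p = 0.00216). With antibiotics 4 were lower, among them Set, an inhibitor of the phosphatase PP2A, Usp36, a deubiquitinase, and Plk1, a mitotic kinase, at -0.65, -0.20 and -0.54, where 16.5% of all features were lower. Their number was 1 when rescaled to the same sum, and 2 when ABX library 1 or 2, or ABX 5-FU library 1 or 2, was left out. Without antibiotics 1 of the 10 was lower, Aurka, another mitotic kinase, which fell by 0.60 (adjusted p = 0.0108), where 11.8% of all features were lower. When Ctrl 5-FU library 1 was left out, 3 were lower. Of the MLX branch, which shares the domain structure of the network, 2 of 3 genes were tested. Mlxip, the gene of the glucose-responsive factor MondoA, rose by 0.36 with antibiotics (adjusted p = 0.0298) and was at 0.25 (adjusted p = 0.117) without, while Mlx was called in neither. Mlxip averaged 1.0 RPKM in ABX 5-FU and 0.902 RPKM in Ctrl 5-FU, against 0.566 RPKM in ABX and 0.586 RPKM in Ctrl libraries. It thus entered the fit through the groups in which it was high, and with no filter on low values it was not called. The Mlxip call was lost without ABX library 2 or 3 or ABX 5-FU library 1 or 3, and 1 of these genes was called without antibiotics when Ctrl 5-FU library 1 was left out.

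Antibiotics by themselves were followed by no call in the network. In the comparison of ABX with Ctrl, 0 of 8 genes passed limma's adjusted threshold and 3 had an unadjusted p under 0.05, where 0.0702% of all features were called. Those 3 were Mxd1 at -0.26 (adjusted p = 0.270), Mxd4 at -0.21 (adjusted p = 0.276) and Mnt at 0.20 (adjusted p = 0.262). Mxd3 was at 0.43 (95% interval -0.01 to 0.88, adjusted p = 0.296), with 2.88, 4.81 and 3.08 RPKM in ABX and 2.56, 2.06 and 2.43 RPKM in Ctrl libraries. Mxd1, Mxd3 and Mnt did not overlap between these groups, against 22.1% of all features. Myc was at -0.08 (-0.37 to 0.22, adjusted p = 0.790) and Mycn at 0.12 (-0.18 to 0.41, adjusted p = 0.674).

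On day 12 after 5-FU, in the comparison of ABX 5-FU with Ctrl 5-FU, 0 of 8 genes were called by limma and 0 had an unadjusted p under 0.05, where 0.117% of all features were called. All 8 overlapped between the groups, where 21.2% of all features did not. Myc was at -0.07 (95% interval -0.36 to 0.23, adjusted p = 0.850), Mycn at 0.22 (-0.08 to 0.51, adjusted p = 0.480) and Mxd3 at -0.18 (-0.62 to 0.27, adjusted p = 0.723). The difference between the 5-FU changes with and without antibiotics was tested as an interaction, in which 0 of 8 genes were called, 0 had an unadjusted p under 0.05 and 0.0117% of all features were called. For Myc it was 0.01 (95% interval -0.41 to 0.43, adjusted p = 0.990). For Mxd3, whose fall was larger with antibiotics, it was -0.61 (-1.24 to 0.03, adjusted p = 0.603), and for Mxd1 0.23 (-0.13 to 0.58, adjusted p = 0.728). In the 3 comparisons of antibiotics 0 of the listed partner and target genes were called.

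**Figure D5:**
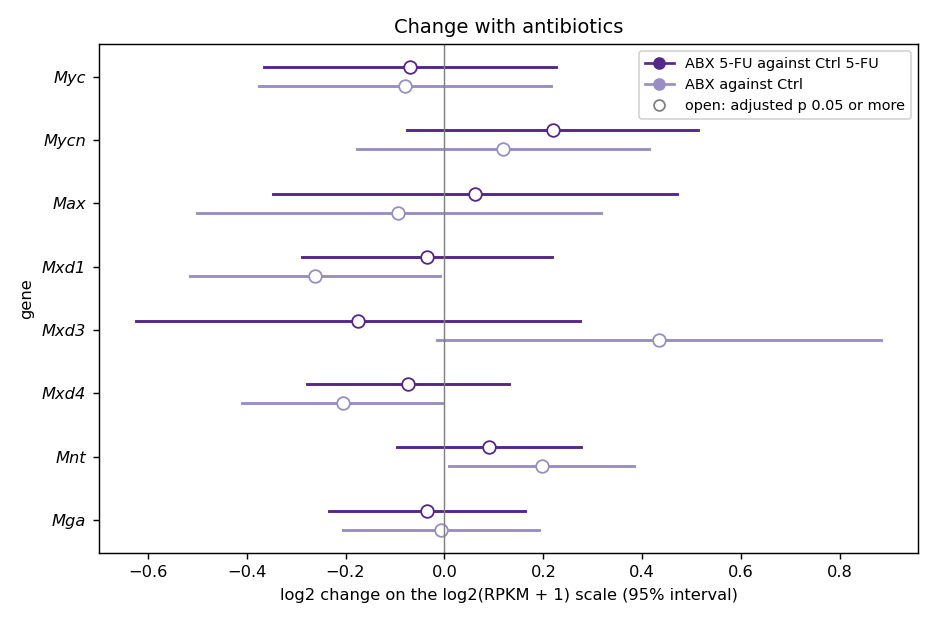
Log2 change with antibiotics on the log2(RPKM + 1) scale (horizontal axis) with its 95% interval for the 8 tested genes (vertical axis), on day 12 after 5-FU in dark purple and without 5-FU in light purple; open points have an adjusted p of 0.05 or more, which all have. Myc is at -0.07 and -0.08, and Mxd3 at -0.18 and 0.43.

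Genes whose level followed that of Myc from library to library were sought separately in the 6 libraries with 5-FU and the 6 without, so that the 5-FU change itself did not enter. Ranked by the lower of the 2 Pearson correlations, D11Wsu47e came first, at 0.832 with 5-FU and 0.827 without, before Gm11460 at 0.818 and 0.837. Sema4d, which encodes a semaphorin, followed at 0.768 and 0.777, Dph5, of diphthamide synthesis, at 0.908 and 0.766, and 4930533O14Rik at 0.891 and 0.747. Each value rests on 6 libraries, which share depth and antibiotic group within them, and they were picked as the highest of 8553, so they stand as a description.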

How the data were processed

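RNA was sequenced from 2000 sorted HSCs per library after cDNA synthesis with the SMART-Seq v4 kit and Nextera XT library preparation, per the labels' protocols. STAR 2.5.3a, Partek and the mm10 build are named in the submitters' processing notes; the counting rule, the annotation and any use of strand are not stated in those notes or labels, nor elsewhere in what was used. The values deposited by the authors are RPKM per feature, with 0.0001 in place of 0. Whole reads could not be recovered from them: 49.2% to 54.1% of the low values lay within 2% of a whole number, so no count test was run and depths are estimates. Gene ends are printed as the table's stop less 1.

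Groups came from the sample labels. One limma 3.58.1 fit (R 4.3.3) of log2(RPKM + 1) with 4 group means, 8 residual degrees of freedom and an intensity trend gave all 5 two-sided comparisons. Features entered that reached 1 RPKM in 3 or more libraries (8553 of 46986), and p-values were Benjamini-Hochberg adjusted over all of them. The comparisons of 5-FU share no libraries with each other, but each shares libraries with the comparisons of antibiotics. The fit was tested on simulated data. Network genes and lists were chosen with earlier results of these data known. All 10 network genes are named, and for the lists up to 4 genes of smallest p per comparison; other list genes were named after their values were seen. Single values of some list and marker genes are not reported here. Alternatives covered the pseudocount, filter, scaling, spread, index and single libraries.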

Additional observations from a re-analysis of the deposited data

Results flagged for a closer look

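Both network genes outside the tests had values above the table's floor, Mycl in few libraries and Mxi1 in all. Estimated reads per library were 35.8 to 105 for Mxi1, while the highest for Mycl was about 20.6. Mycl reached its highest value, 0.215 RPKM, in Ctrl 5-FU library 1, the library that stood apart from its group, and was at the floor in 9 of 12 libraries. Mxi1 reached its highest value, 0.442 RPKM, in ABX 5-FU library 1 and was above the floor in all 12 libraries. In a fit with no filter on low values Mxi1 changed by 0.11 (limma adjusted p = 0.418) after 5-FU with antibiotics and by 0.12 (adjusted p = 0.405) without.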

How the results depend on the processing

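The 7 calls of network genes gave 142 values under the alternatives, of which 121 kept call and direction, 21 lost the call and 0 changed sign. Many of these values could not change sign. Leaving out a library outside the groups compared, changing the filter, dropping the intensity trend or fitting only 2 groups leaves the log2 change as it was. Such alternatives bear on the adjusted p alone. The 33 results not called gave 684 values, of which 7 gained a call and 34 changed sign. The cause was not tested except where stated. RPKM without counts leaves counting error unknown, and 3 libraries a group limit what small changes can pass. No paired analysis was possible because the labels give no replicate numbers shared between groups; the running number in the titles differs in every library. The i7 index is shared between ABX and Ctrl and between ABX 5-FU and Ctrl 5-FU libraries, so it served as a block in the comparisons of antibiotics and the interaction only.

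After 5-FU with antibiotics, 1 network gene and 1460 features were called when features had to reach 5 RPKM in 3 or more libraries. At that filter only Myc and Mycn of the network were tested, among 3709 features, so Mxd1, Mxd3 and Mnt could not be called. With libraries rescaled to the same sum 5 network genes were called, and 5 with array weights. Without antibiotics, 1 network gene was called with no filter and 1 of the 2 tested at 5 RPKM, with 1184 features. With only the 2 groups fitted 1 was called, with 812 features. Leaving out 1 library gave 3 to 4 network genes and 1624 to 2876 features with antibiotics, and 1 to 4 and 942 to 2078 without. For ABX against Ctrl, 11 features were called with no filter, 15 at 5 RPKM, 13 rescaled, 49 with array weights and 20 with the index as a block, and 1 to 29 with 1 library left out. For ABX 5-FU against Ctrl 5-FU these were 22 at 5 RPKM, 47 rescaled, 120 with array weights, 3 with 2 groups and 22 with the index block, and 6 to 42 with 1 library left out. The interaction gave 7 with no filter, 0 at 5 RPKM, 0 with the index block and 0 to 3 with 1 library left out.

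Uncalled values changed sign as follows. Max after 5-FU without antibiotics was 0.12 when rescaled, Mxd3 in ABX 5-FU against Ctrl 5-FU was 0.002 with array weights, and in the interaction Mga was 0.008 with medians aligned and Myc -0.046 with array weights. With 1 library left out, the ranges after 5-FU were -0.001 to 0.179 (Mycn), -0.155 to 0.15 (Max) and -0.021 to 0.154 (Mxd4) without antibiotics and -0.016 to 0.22 (Max) with them. For ABX against Ctrl they were -0.173 to 0.033 (Myc), -0.018 to 0.193 (Mycn), -0.2 to 0.054 (Max) and -0.096 to 0.057 (Mga). For ABX 5-FU against Ctrl 5-FU they were -0.177 to 0.078 (Myc), -0.12 to 0.185 (Max), -0.134 to 0.035 (Mxd1), -0.343 to 0.056 (Mxd3), -0.009 to 0.148 (Mnt) and -0.083 to 0.022 (Mga). For the interaction they were -0.102 to 0.158 (Myc), -0.027 to 0.277 (Max) and -0.092 to 0.061 (Mga).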
